A study of Homo sapiens with 10 samples.

Results

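The 2 libraries from H1 cells with SMARCA4 knocked down were compared with the 6 libraries in which MAFK, E2F6 or KDM1A was knocked down instead, so 8 of the 10 libraries of the study entered the comparison. H1 is a widely used human embryonic stem cell line. A short hairpin RNA (shRNA) directs the cell to degrade the messenger it matches. The 4 groups, shSMARCA4, shMAFK, shE2F6 and shKDM1A, each held 2 libraries labelled as replicates. All 8 shared a genotype labelled wild type, feeder-free growth in mTeSR1 on Matrigel, infection with virus packaged in 293T cells, puromycin selection, and total RNA with an integrity number of at least 8. The control group shLUC, 2 libraries with an shRNA against luciferase, went through the same steps and was kept out of the test. The question was how shSMARCA4 differed from the average of the MAFK, E2F6 and KDM1A knockdowns, whatever the state of the control. The shLUC values are given beside the results for orientation. The hairpin sequences, the number of hairpins per gene and the origin of the replicates (separate infections or 1 culture) are not given in the sources used here. If the replicates share a culture, the p-values measure technical spread only.

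SMARCA4, also called BRG1, is an ATPase of the BAF (SWI/SNF) complexes, which use ATP to slide or evict nucleosomes and so open promoters and enhancers. In embryonic stem cells SMARCA4 is the main ATPase of the complex, while its paralog SMARCA2 is the alternative one, and the complex acts at genes for self-renewal and at genes held ready for differentiation. The genes of the 3 comparison knockdowns act on chromatin in other ways. MAFK is a small MAF protein that pairs with NRF2 or BACH factors, E2F6 recruits a Polycomb complex to germline genes, and KDM1A (LSD1) removes methyl groups from histone H3.

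Values are normalized tag counts, whole numbers made by the authors, and the read depth behind them is unknown because the normalization set the library totals to between 22836548 and 22854645. Differences are on the scale of log2(value + 1), as shSMARCA4 minus the mean of the 3 other group means, which understates changes of low genes. A row, which is a gene or a subfamily of transposable elements, was called when limma's Benjamini-Hochberg adjusted p over all 14785 rows was under 0.05. Replicates spread by an SD of 0.335 on the log2 scale in shSMARCA4, of 0.308 in shE2F6 and 0.264 in shMAFK, and of 0.53 in shKDM1A, whose replicate 1 also listed the most rows at 0 (45, against 8 to 32 elsewhere). The first principal component of the 8 libraries held 38.2% of the variance and set the shSMARCA4 libraries (40.6 and 46.1) against shKDM1A replicate 1 (-64.0). The shE2F6 libraries lay nearest to shSMARCA4 on it (4.6 and 10.2). Every row of the table reached 80 in at least 2 of the 10 libraries. A row that reached 80 in at most 1 library outside shSMARCA4 was therefore in the table only through its shSMARCA4 values, which favours rows that are high there. This held for 182 rows, and for such rows a high shSMARCA4 value is in part a condition of being listed.

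The knockdown itself was clear. SMARCA4 (chr19:10960825-11079426, plus strand, GRCh38, GENCODE release 29) read 1100 and 985 in the shSMARCA4 libraries, while shE2F6 had 8220 and 7917, shKDM1A 9296 and 7917, and shMAFK 8220 and 7576. The groups did not overlap, and shSMARCA4 held 12.7% of the mean of the other 6 (log2 difference -2.97, SE 0.133, limma adjusted p = 0.000143). The shLUC libraries, at 8086 and 8374, lay with the others. Of the other targets, E2F6 differed by 0.18 (adjusted p = 0.629), MAFK by 0.00 (adjusted p = 1) and KDM1A by 0.44 (adjusted p = 0.303), and each average included the group in which that gene was knocked down. KDM1A itself read 3290 and 1879 in shKDM1A and 5421 to 6492 in the other 6 knockdown libraries. E2F6 read 336 and 304 in shE2F6, and MAFK read 82 and 216 in shMAFK, where replicate 2 overlapped the shSMARCA4 values of 278 and 210. MAFK was thus clearly low in only 1 of the 2 shMAFK libraries.

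Of 14785 rows, 977 were called (6.61%), 393 higher (2.66%) and 584 lower (3.95%) in shSMARCA4. The median log2 difference was 1.03 among higher calls and -1.20 among lower calls, beside 0.01 over all rows. Both shSMARCA4 libraries lay outside the range of the other 6 in 919 of the 977, and in 19.7% of all rows (9.89% above and 9.77% below). Rows with group means at least 2-fold apart numbered 863 (5.84%), 346 higher (2.34%) and 517 lower (3.5%). The difference was at least 2-fold against each of the 3 knockdowns taken alone in 327 called rows, 107 higher and 220 lower. The knockdown with the nearest group mean was shE2F6 in 551 called rows, shKDM1A in 232 and shMAFK in 197, ties counted in each. Of the 182 rows that entered the table through shSMARCA4, 33 were called, all higher, which is 8.4% of the higher calls. A fit without 1 library has less to estimate the spread from, so a lost call need not mean a lost difference. The number of calls changed when single libraries were left out. It fell to 184 without shSMARCA4 replicate 1 and to 206 without replicate 2, fell to between 465 and 518 without any 1 library of shMAFK or shE2F6, and rose to 1507 and 2404 without shKDM1A replicate 1 and 2. It was 486 when the 6 other libraries were treated as 1 group, a fit that counts the differences among the 3 knockdowns as error.

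**Figure D1:**
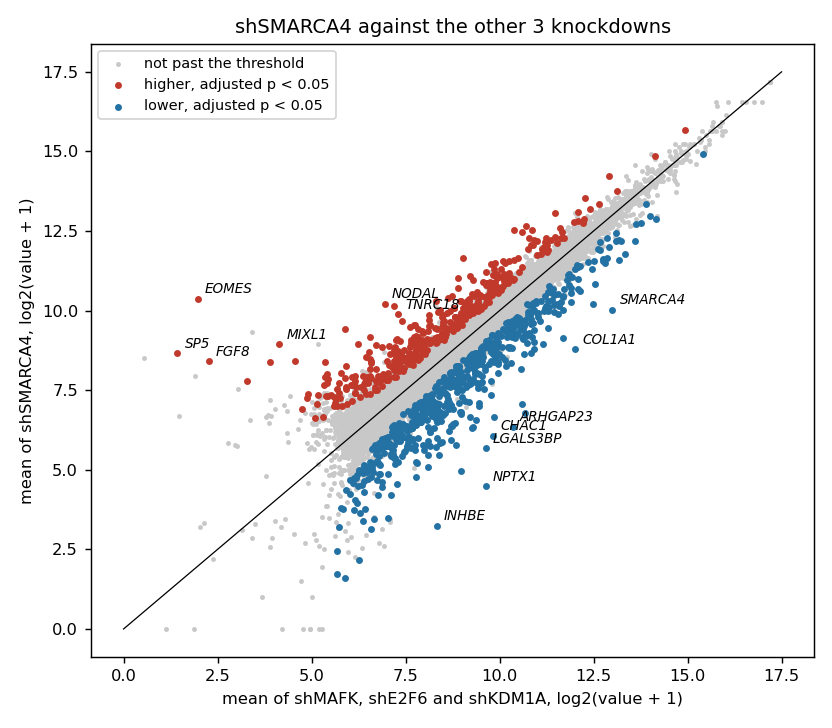
Each point is 1 row, with the mean of the shMAFK, shE2F6 and shKDM1A group means on the x axis and the shSMARCA4 mean on the y axis, both as log2(value + 1). Red points are the 393 rows called higher and blue points the 584 called lower in shSMARCA4. EOMES, SP5, FGF8 and MIXL1 lie far above the diagonal at low levels in the other knockdowns, and NPTX1, INHBE and LGALS3BP lie far below it.

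Among called genes without overlap, the 12 largest rises were EOMES, SP5, FGF8, MIXL1, SIX6, GAD1, WNT3, ZIC1, NODAL, TMEM266, FOXB1 and FEZF1. Of these, 8 were in the table through shSMARCA4 alone (EOMES, SP5, FGF8, MIXL1, SIX6, GAD1, WNT3 and TMEM266). The 12 included 5 members of the mesendoderm list and 2 of the neuroectoderm list. The mesendoderm list covers the pathway of NODAL, a TGF-beta family signal that directs pluripotent cells toward mesoderm and endoderm. Of 24 genes listed for it, 13 were in the table and 7 of these were called, all higher (53.8%, beside 2.66% of all rows). The list contained 8 genes that were in the table through shSMARCA4 alone, 4 of them among the 7, so the count describes the group and is no support for it. GSC, TBXT, SOX17, GATA4, GATA6, LHX1, MESP1 and MESP2 were among the 11 listed names without a row.

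Among the ligands, NODAL (chr10:70432315-70447951) read 2112 and 664 in shSMARCA4, while shE2F6 had 213 and 146, shKDM1A 256 and 100, and shMAFK 76 and 54. The groups did not overlap, and the difference was 3.27 (SE 0.480, adjusted p = 0.00758). WNT3, which starts primitive streak formation, read 562 and 210 against 12 to 42 (3.88, SE 0.535, adjusted p = 0.00599). FGF8, a growth factor of the streak, read 782 and 146 against 1 to 7 (6.15, SE 1.14, adjusted p = 0.0195). GDF3, a relative of NODAL, was higher by 1.6 (adjusted p = 0.0222), with 1076 and 443 against 434 at most. In all 4 ligands replicate 1 was the higher shSMARCA4 library, and replicate 2 also lay above every library of the other knockdowns. WNT3 and FGF8 were in the table through shSMARCA4 alone, so their separation is partly set by that.

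Among the transcription factors, EOMES (chr3:27715949-27722711), which drives endoderm formation, read 2430 and 724 in shSMARCA4, and 24 and 0 (shE2F6), 0 and 20 (shKDM1A) and 0 and 6 (shMAFK) elsewhere. The difference was 8.40 (SE 1.66, adjusted p = 0.0246), and shLUC stayed low at 14 and 34. MIXL1 (chr1:226223618-226227054), a homeobox gene of the streak, read 1809 and 132 against 9 to 34 (4.81, SE 0.873, adjusted p = 0.0185). Both EOMES and MIXL1 entered the table through shSMARCA4 alone, which partly sets their separation. HHEX was called at 1.11 (adjusted p = 0.0460). FOXA2, a factor of definitive endoderm, read 792 and 170 against 0 to 4 and did not pass the threshold (log2 difference 7.97, SE 2.53, adjusted p = 0.119).

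The pathway's secreted antagonists did not pass the threshold either. CER1 read 2354 and 172 against 0 to 57 (adjusted p = 0.0784). LEFTY1 read 1885 and 131 and LEFTY2 396 and 42, and in both the lower shSMARCA4 library fell within the range of the other 6 (adjusted p = 0.129 and 0.154). LEFTY1 and LEFTY2 are close paralogs whose reads the counting may have shared. FOXH1, the SMAD partner that carries the NODAL signal to DNA, read 2639 and 2690 against 1681 to 3623, with a difference of -0.01 (adjusted p = 0.988). The summed level of the 13 genes, most of it FOXH1 in the other groups, was 17423 and 5835 in shSMARCA4 against 2686 to 3939 in the other 6. Because 8 of the 13 were in the table through shSMARCA4 alone, this sum describes the list and is no support for a rise.

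**Figure D2:**
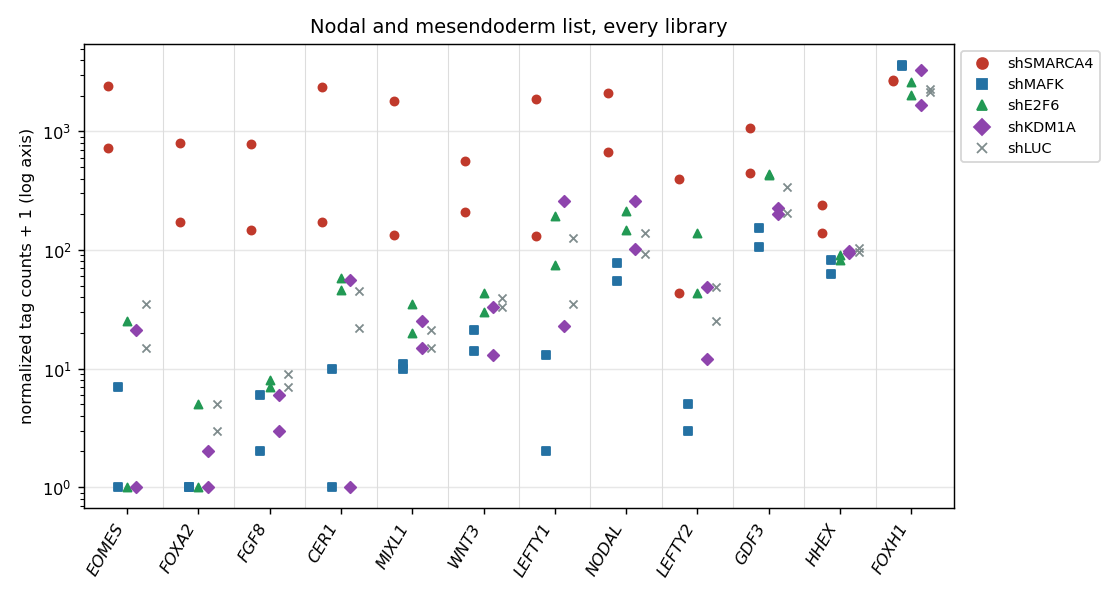
Values of 12 of the 13 genes of the NODAL and mesendoderm list in each of the 10 libraries, as normalized tag counts plus 1 on a log axis, so that a value listed at 0 is drawn at 1. Red circles are the 2 shSMARCA4 libraries. The upper circle is replicate 1 for every gene but FOXH1, and the circles lie above the other 6 knockdown libraries for 9 of the 12 genes drawn, in part because 8 of the 13 listed genes were in the table through shSMARCA4 alone.

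The replicates disagreed in size for this set: shSMARCA4 replicate 2 minus replicate 1 had a median of -1.75 on the log2 scale over the 13 genes. Without replicate 1 none of the 13 was called, and without replicate 2 there were 4. In the fit without replicate 1, MIXL1 still differed by 2.92 (adjusted p = 0.182), NODAL by 2.44 (adjusted p = 0.0797), EOMES by 7.53 (adjusted p = 0.308) and WNT3 by 3.17 (adjusted p = 0.112). Without any 1 library of shMAFK or of shE2F6 there were 5 calls. Against shE2F6 alone none of the 13 passed limma's threshold, with NODAL at 2.74 (adjusted p = 0.0629) and WNT3 at 3.26 (adjusted p = 0.0512). In bulk RNA a change in the share of cells that express a gene and a change in its RNA per cell cannot be told apart, here or below.

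MIXL1 is shown with its promoter because it is the member of this set whose proximal sequence held matches to motifs of both the Wnt and the NODAL pathway. The 300 bases from 250 before to 50 after its RefSeq start (chr1:226223414-226223713, plus strand, GRCh38.p14) read as follows, 5′ to 3′, with matches to the TCF/LEF motif CTTTGAT and to the FOXH1 motif AATCCACA (here on the opposite strand) in capitals.
MIXL1: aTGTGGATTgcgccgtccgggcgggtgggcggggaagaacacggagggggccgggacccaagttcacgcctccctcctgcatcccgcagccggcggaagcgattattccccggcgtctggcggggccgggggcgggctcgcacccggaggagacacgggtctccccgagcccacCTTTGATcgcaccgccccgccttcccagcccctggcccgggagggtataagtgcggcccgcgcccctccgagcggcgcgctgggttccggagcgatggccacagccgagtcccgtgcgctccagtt
The CTTTGAT match began 76 bases before the start, and the FOXH1 match 249 bases before. Searched on both strands, CTTTGAT occurred in 1.32% and AATCCACA in 0.35% of the 10488 promoters matched to the table by symbol. Each occurred in 1 of the 6 called members that had a promoter.

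Genes downstream of the same signals moved in part. SP5, a direct target of Wnt signalling, read 592 and 273 against 1 to 3 in the other knockdowns and 2 and 2 in shLUC (7.22, SE 1.46, adjusted p = 0.0269). LEF1, a Wnt effector and target, read 168 and 202 against 36 to 68 (1.85, SE 0.268, adjusted p = 0.00708). Of 37 Wnt pathway genes listed, 28 were in the table, with a list median of 0.12. Of these, 3 were higher (SP5, LEF1 and WNT3) and 1 was lower (14.3% called, beside 6.61% of all rows). The lower gene was SFRP1, a secreted Wnt inhibitor, by 1.06 (adjusted p = 0.0167). All 3 of the higher members were in the table through shSMARCA4 alone. None of the 4 calls survived without shSMARCA4 replicate 1, where SP5 differed by 6.67 (adjusted p = 0.436), and 1 survived without replicate 2.

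In the FGF list, 23 of 24 genes were in the table, 2 were higher and 2 lower (17.4% called, beside 6.61% of all rows, list median -0.11). The 2 higher genes restrain ERK signalling. DUSP6, an ERK phosphatase that ERK itself induces, read 5844 and 5536 against 821 to 2190 in the other knockdowns and 2879 and 3673 in shLUC (1.87, SE 0.257, adjusted p = 0.00598). SPRY2 read 1229 and 1610 against 469 to 990 (0.95, adjusted p = 0.0261). The 2 lower genes were FGF2, the growth factor of stem cell culture, at 1228 and 1591 against 2082 to 5844 (-1.23, adjusted p = 0.0118), and its receptor FGFR3 at 104 and 104 against 168 to 1259 (-1.79, adjusted p = 0.0165). All 4 groups of values were free of overlap. None of the 4 was called when either shSMARCA4 library, replicate 1 or replicate 2, was left out, with adjusted p-values of up to 0.258. In the BMP list 15 of 22 genes were in the table and 2 were called (13.3%, beside 6.61% of all rows, list median 0.14). FST, which binds activin, was higher by 1.30 (adjusted p = 0.0145), and ID1, a target of BMP signalling, was lower by 1.44 (adjusted p = 0.0152). Both calls were lost without either shSMARCA4 library (adjusted p of up to 0.169).

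The other rises included ZIC1, FOXB1 and TMEM266. ZIC1 (chr3:147393422-147510293), a zinc finger gene of the neural plate, read 462 and 1004 against 36 to 79 in the other knockdowns and 95 and 149 in shLUC (3.53, SE 0.357, adjusted p = 0.00188). FOXB1 (chr15:60004222-60061730), a forkhead gene of the developing brain, read 942 and 1338 against 85 to 221 in the other 6 (2.95, SE 0.220, adjusted p = 0.000688). TMEM266, a voltage-sensor protein gene, read 346 and 322 against 24 to 56 (3.03, SE 0.314, adjusted p = 0.00204). TMEM266 was in the table through shSMARCA4 alone, so its separation from the other libraries is partly set by that. These 3 were the members of the 12 rises that stayed called in every fit that left out 1 library. The other 9 lost the call without shSMARCA4 replicate 1 (adjusted p of up to 0.436), 6 of them also without replicate 2 and 4 also without a library of another group.

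SIX6 and SIX3, genes of the eye field and forebrain, differed by 4.49 (adjusted p = 0.0230) and 2.32 (adjusted p = 0.0177). SIX6 read 187 and 254 against 0 to 44, and SIX3 190 and 210 against 20 to 141. For SIX3 the shLUC libraries were unlike each other, at 62 and 211. FEZF1, a forebrain repressor, read 456 and 542 against 45 to 308 in the other knockdowns, but 274 and 356 in shLUC, so its control lay nearer to shSMARCA4 (2.73, SE 0.422, adjusted p = 0.00966). GAD1, which makes the transmitter GABA, read 373 and 292 against 0 to 36 (4.48, SE 1.08, adjusted p = 0.0488). MAP2, a neuronal microtubule protein, was higher by 1.43 (adjusted p = 0.0343). SIX6 and GAD1 were in the table through shSMARCA4 alone, so their differences describe them and are no support for a rise of neural genes.

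The rise did not extend to the whole neuroectoderm list. Of 30 genes, 15 were in the table, 4 were higher and 2 lower (40.0% called, beside 6.61% of all rows), with SIX6 among the 4, the list median was -0.17, and the summed level was 21921 and 19740 in shSMARCA4 against 23030 to 28896 in the other 6. POU3F1, a POU factor of early neural cells, was lower by 1.02 (adjusted p = 0.0350). ZIC2 differed by 0.00 (adjusted p = 0.996) and OTX2 by 0.06 (adjusted p = 0.957). Without either shSMARCA4 library ZIC1 alone of the 4 higher genes stayed called. In the axon guidance list 48 of 55 genes were in the table, 5 higher and 3 lower (16.7% called, beside 6.61% of all rows, list median 0.03). ROBO2, a receptor for SLIT proteins, read 560 and 933 against 134 to 261 (1.87, SE 0.205, adjusted p = 0.00250) and stayed called in every fit that left out 1 library. EFNA3 (1.70, adjusted p = 0.0195), UNC5C (1.35, adjusted p = 0.0458) and SEMA3A (1.16, adjusted p = 0.00758) were also higher, and SEMA3F and UNC5B were lower by 1.16 (adjusted p = 0.0195) and 1.14 (adjusted p = 0.00610). Those 5 lost the call without either shSMARCA4 library.

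The genes of the undifferentiated state remained expressed. All 18 of 20 listed pluripotency genes with a row had values above 0 in every library, POU5F1 with at least 16615 and DNMT3B with at least 25021. Of these 18, 0 were higher and 3 lower (16.7% called, beside 3.95% of all rows called lower), and the list median was -0.28. SOX2 read 4426 and 4748 against 5367 to 7680 (-0.50, SE 0.119, adjusted p = 0.0467), LIN28A 30774 and 30774 against 41812 to 51691 (-0.49, SE 0.108, adjusted p = 0.0352), and TERF1 was lower by 0.54 (adjusted p = 0.0388). High values move in steps in this table, so the LIN28A difference is mostly 1 step. All 3 calls were lost without either shSMARCA4 library, without either shMAFK library, and without shE2F6 replicate 2 (adjusted p of up to 0.292). NANOG, a target of NODAL signalling, read 4613 and 3699 against 1640 to 2923, above all 6, with a difference of 0.90 that missed the threshold (SE 0.255, adjusted p = 0.0855). POU5F1 differed by -0.23 (adjusted p = 0.866).

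Other subunits of the BAF complexes were near their levels in the other knockdowns. Of 28 listed genes, 25 were in the table and 2 were called (8.0%, beside 6.61% of all rows), 1 of them the target itself. SMARCA4 was lower, and BCL7C, an accessory subunit, was higher at 554 and 514 against 142 to 274 (1.43, SE 0.197, adjusted p = 0.00598). The BCL7C call was lost without either shSMARCA4 library (adjusted p of up to 0.0842). SMARCA2, the alternative ATPase, read 544 and 532 against 404 to 632, with a difference of 0.19 (SE 0.134, adjusted p = 0.512). ARID1A, the defining subunit of canonical BAF, differed by 0.51 (SE 0.209, adjusted p = 0.221), and ARID1B by 0.37 (adjusted p = 0.244). The list median was 0.11.

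The falls outnumbered the rises, and more of the largest ones kept their call when a library was left out. Among the 12 largest falls of called genes without overlap were NPTX1, INHBE, CXCR2, LINC01967, ARHGAP23, PKDCC, LGALS3BP, G0S2, COL9A3, CHAC1 and LINC02473, and 8 of the 12 stayed called in every fit that left out 1 library. NPTX1 (chr17:80467148-80477843), a secreted neuronal pentraxin, read 17 and 27 in shSMARCA4, against 198 and 438 in shE2F6, 692 and 1290 in shKDM1A, 1318 and 2374 in shMAFK, and 1076 and 1048 in shLUC (-5.14, SE 0.386, adjusted p = 0.000688). The shSMARCA4 mean was 2.09% of that of the other 6, with no overlap.

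ARHGAP23, a GTPase-activating protein gene, read 59 and 110 against 866 to 2017 (-4.00, SE 0.259, adjusted p = 0.000451). PKDCC, a secreted kinase, read 42 and 22 against 211 to 1462 (-4.00, SE 0.446, adjusted p = 0.00257). INHBE, an activin subunit gene, read 8 and 9, against 80 and 42 in shE2F6 and 454 to 1068 in shMAFK and shKDM1A (-5.08, SE 0.375, adjusted p = 0.000688). Its control libraries were far apart, at 57 and 419. CXCR2, LINC01967 and G0S2 were each listed at 0 in shSMARCA4 replicate 2, and these and LINC02473 lost the call when that library or, for LINC02473, replicate 1 was left out (adjusted p of up to 0.200 over the 12 genes). They also lost it without single libraries of the other groups.

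**Figure D3:**
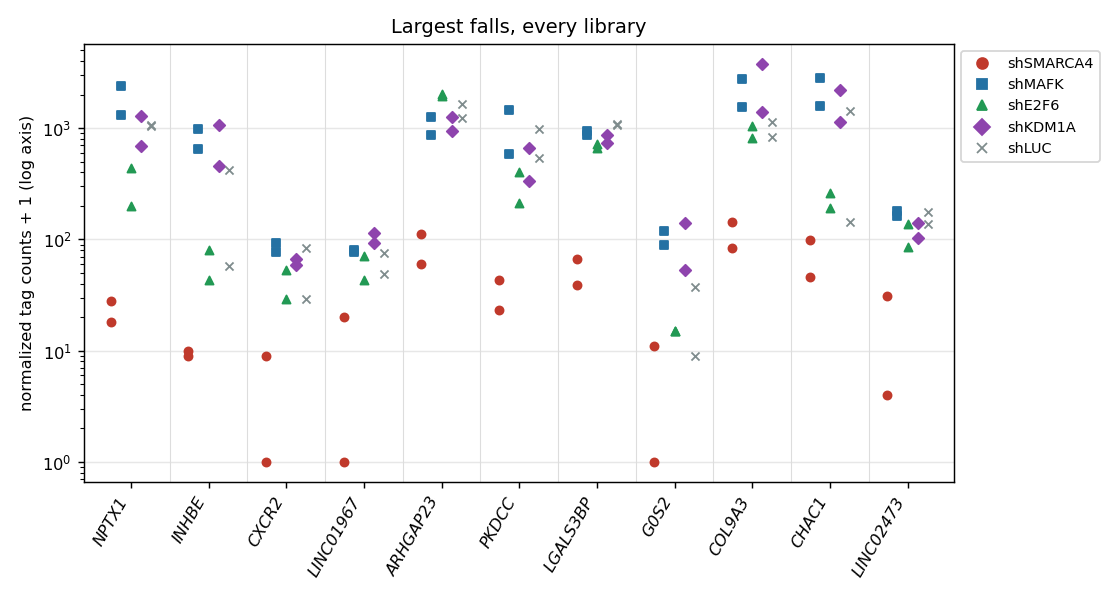
Values of 11 of the 12 genes with the largest falls in each of the 10 libraries, as normalized tag counts plus 1 on a log axis (a value listed at 0 is drawn at 1). The red circles of shSMARCA4 lie below all 6 libraries of the other knockdowns for each gene. For ARHGAP23 and LGALS3BP the other libraries lie close together, while for INHBE and CHAC1 the green triangles of shE2F6 lie between.

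Genes of the extracellular matrix and of mesenchyme were among the falls. COL1A1 (chr17:50183289-50201632), a chain of collagen I, read 311 and 629 in shSMARCA4 against 2312 to 8374 in the other 6 (-3.22, SE 0.419, adjusted p = 0.00502). Without replicate 1 it differed by -2.72 and was no longer called (adjusted p = 0.0703). VIM, the intermediate filament vimentin, read 1046 and 876 against 2473 to 3873, and 3429 and 3110 in shLUC (-1.65, SE 0.145, adjusted p = 0.00127). THY1, a surface protein of fibroblasts and stem cells, was lower by 1.18 (adjusted p = 0.0239) and lost its call without either shSMARCA4 library or either shE2F6 library (adjusted p of up to 0.208). COL9A3, a cartilage collagen chain, read 141 and 83 against 816 to 3781 (-3.91, SE 0.400, adjusted p = 0.00193). Of the 18 mesenchyme and neural crest markers, 8 were in the table, 3 were lower and none higher (37.5% called, beside 3.95% of all rows called lower, list median -0.75), and their sum was 8323 and 8953 against 18501 to 33065. None of the 8 was at 0 in any library.

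In the extracellular matrix list 32 of 33 genes were in the table, 3 higher and 6 lower (28.1% called, beside 6.61% of all rows, list median -0.32). COL6A3 read 70 and 97 against 320 to 578 (-2.32, SE 0.236, adjusted p = 0.00191), and NID2, a basement membrane linker, 198 and 150 against 409 to 502 (-1.44, SE 0.159, adjusted p = 0.00250). COL18A1 was lower by 1.29 (adjusted p = 0.00714). In the opposite direction, COL6A1 read 23459 and 15764 against 5628 to 10074 (1.32, SE 0.171, adjusted p = 0.00491), so chains of the same collagen VI protein moved in opposite directions. The highest values of the table lie on wide steps, so the sizes for COL6A1 and COL18A1 are coarse. The FBN2 and TNC genes, for a fibrillin and tenascin C, were higher by 1.31 (adjusted p = 0.00657) and 1.46 (adjusted p = 0.00966). COL6A3 and NID2 stayed called in every fit that left out 1 library, and the other 4 were not called without shSMARCA4 replicate 1 (adjusted p of up to 0.116).

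Some markers of trophoblast, amnion and simple epithelium were also lower. Of 16 trophoblast and amnion markers only 5 were in the table, 3 of them lower (60% called, beside 3.95% of all rows called lower, list median -1.32), and the sum was 1025 and 1200 against 1306 to 1779. KRT7 read 30 and 44 against 125 to 360 (-2.57, SE 0.311, adjusted p = 0.00357). IGFBP3 was lower by 2.07 (adjusted p = 0.0354) and GABRP by 1.32 (adjusted p = 0.0179), while TFAP2C differed by -0.32 (adjusted p = 0.781). In the list of epithelial junctions and keratins 20 of 21 genes were in the table, with 9 positive and 11 negative differences. Both shSMARCA4 libraries lay above the other 6 for 4 of these genes and below for 5. None was called higher, and KRT7, CLDN4 (by 1.28, adjusted p = 0.00358), KRT19 (by 1.20, adjusted p = 0.0228) and PKP2 (by 0.76, adjusted p = 0.0220) were lower (20% called, beside 3.95% of all rows called lower, list median -0.03). Without shSMARCA4 replicate 1 none of these 6 genes was called, KRT7 narrowly (adjusted p = 0.0552). The part of a few differentiating cells of these kinds in the calls above was not tested.

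The integrated stress response had the largest share of called members of the 18 lists examined. It is the programme in which the factor ATF4 raises genes for amino acid supply and for coping with misfolded protein. All 22 listed genes were in the table, all 22 had a lower mean in shSMARCA4, 18 were called lower (81.8%, beside 3.95% of all rows) and 0 higher. The list median was -1.51, and 15 of the 22 lay below all 6 other libraries, beside 9.77% of all rows. Members of the 18 lists were chosen with earlier results of these data known. The rank and shares of this list therefore describe it and are no support for its fall. The summed level was 35425 and 33569 in shSMARCA4, 55551 and 51248 in shE2F6, 121105 and 96744 in shMAFK, and 104789 and 98869 in shKDM1A. Among the knockdown groups the summed level was thus lowest in shSMARCA4, next in shE2F6, and higher in shMAFK and shKDM1A.

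Among ATF4's regulators and effectors, CHAC1 (chr15:40952962-40956519), which degrades glutathione, read 45 and 98 in shSMARCA4, 258 and 191 in shE2F6, 2818 and 1592 in shMAFK, and 1142 and 2200 in shKDM1A (-3.75, SE 0.371, adjusted p = 0.00180). TRIB3, a pseudokinase that feeds back on ATF4, read 52 and 76 against 97 to 1022 (-2.35, SE 0.257, adjusted p = 0.00250). DDIT4, an inhibitor of mTORC1, was lower by 1.40 (SE 0.155, adjusted p = 0.00250), yet its values of 1510 and 1793 lay above the 990 and 1220 of shE2F6. ATF4 itself read 4572 and 3673 against 4704 to 7040, below all 6, with a difference of -0.56 that missed the threshold (adjusted p = 0.0835). DDIT3, the factor CHOP, differed by -0.65 (adjusted p = 0.138), PHGDH, of serine synthesis, by -0.84 (adjusted p = 0.0951) and the lipoprotein receptor VLDLR by -0.26 (adjusted p = 0.418).

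Among the genes of amino acid supply, ASNS, which makes asparagine, read 1306 and 1168 in shSMARCA4, 2208 and 1662 in shE2F6, 7784 and 6490 in shMAFK, and 3474 and 4808 in shKDM1A (-1.63, SE 0.186, adjusted p = 0.00299). PSAT1, of serine synthesis, read 3329 and 2842 against 5172 to 16615 (-1.59, adjusted p = 0.00250). SLC7A11, the cystine transporter, read 592 and 459 against 820 to 3367 (-1.89, SE 0.196, adjusted p = 0.00204), and SLC7A5, a transporter of large neutral amino acids, 3651 and 3348 against 7097 to 14274 (-1.55, adjusted p = 0.00180). The mitochondrial folate enzymes SHMT2 (-1.70, adjusted p = 0.00365), ALDH1L2 (-1.74, adjusted p = 0.00151) and MTHFD2 (-1.13, adjusted p = 0.0153) were lower as well. STC2, a secreted glycoprotein that ATF4 induces, read 454 and 540 against 930 to 3622 (-2.19, SE 0.154, adjusted p = 0.000533).

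**Figure D4:**
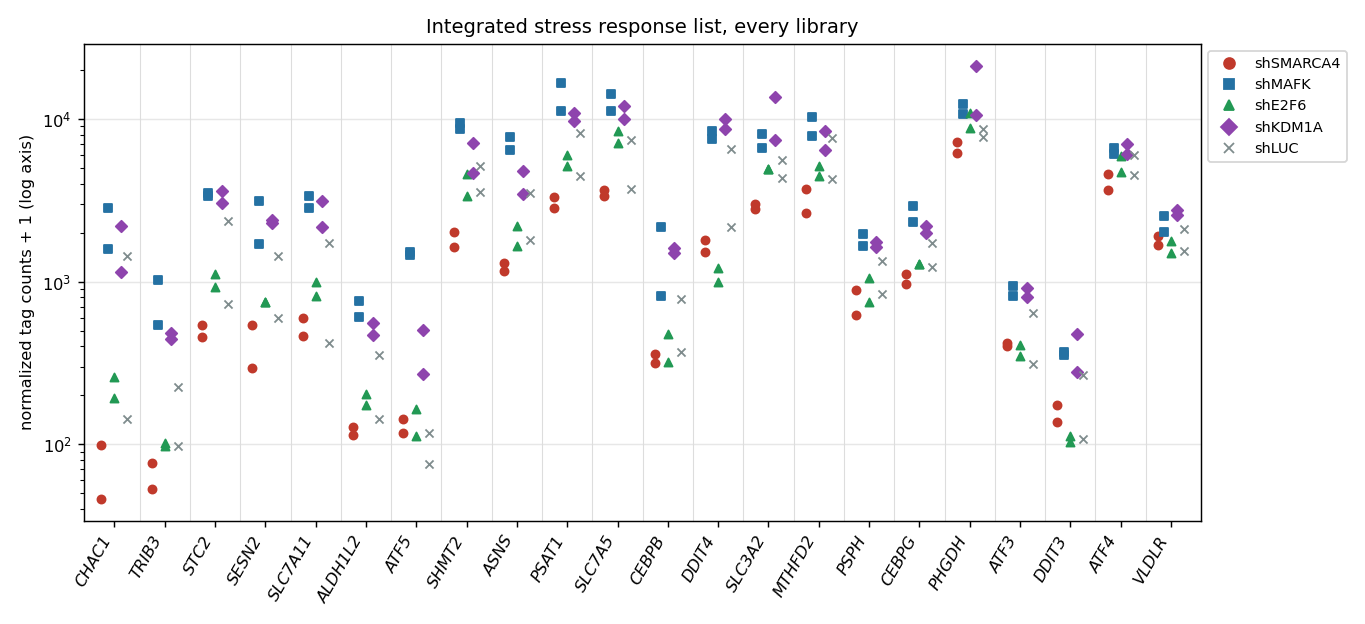
Values of the 22 genes of the integrated stress response list in each of the 10 libraries, as normalized tag counts plus 1 on a log axis. The red circles of shSMARCA4 are lowest for most genes, the green triangles of shE2F6 come next, and the blue squares of shMAFK and violet diamonds of shKDM1A are highest. The 2 crosses of shLUC are far apart for CHAC1, STC2 and DDIT4.

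How far this group set shSMARCA4 apart depended on the comparator. The list median was -2.06 against shMAFK, -1.69 against shKDM1A and -0.62 against shE2F6. In limma's fit of the same 8 libraries, 19 of the 22 were called against shMAFK alone, 19 against shKDM1A alone and 2 against shE2F6 alone. Those 2 were SLC7A5 (-1.15, SE 0.187, adjusted p = 0.0264) and STC2 (-1.04, SE 0.189, adjusted p = 0.0358). With the 6 other libraries as 1 group the count was 2, since the spread among the 3 knockdowns then counts as error, and without the shMAFK group it was 11. Leaving out either shSMARCA4 library left 10. Against shLUC, which was no part of the test, the list median was -0.74, and the 2 control libraries differed from each other by a median of 0.97 (sums of 43287 and 73371). CHAC1 read 142 and 1436 in them. The span between the control libraries was thus larger than the distance of shSMARCA4 from their mean. The sums of shSMARCA4 lay below both control libraries, those of shE2F6 between them, and those of shMAFK and shKDM1A above both.

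CHAC1 and ASNS are shown with their promoters because both are textbook targets of ATF4 and held a match to its composite motif with C/EBP factors. The windows run from 250 before to 50 after the RefSeq start (GRCh38.p14, chr15:40953221-40953520 on the plus strand and chr7:97872359-97872658 on the minus strand), 5′ to 3′, with matches to TGATGNAA on either strand in capitals.
CHAC1: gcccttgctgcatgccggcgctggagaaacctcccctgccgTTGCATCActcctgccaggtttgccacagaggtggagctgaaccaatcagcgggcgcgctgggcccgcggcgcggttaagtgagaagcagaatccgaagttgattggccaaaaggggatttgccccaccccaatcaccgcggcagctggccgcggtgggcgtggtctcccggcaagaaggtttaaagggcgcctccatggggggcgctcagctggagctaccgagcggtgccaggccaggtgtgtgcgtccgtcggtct
ASNS: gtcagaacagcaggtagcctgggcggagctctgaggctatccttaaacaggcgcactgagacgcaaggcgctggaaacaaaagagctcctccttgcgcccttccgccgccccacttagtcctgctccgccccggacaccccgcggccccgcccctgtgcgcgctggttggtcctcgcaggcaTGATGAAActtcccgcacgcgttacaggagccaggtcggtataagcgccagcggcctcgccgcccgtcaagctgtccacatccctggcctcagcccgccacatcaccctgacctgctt
The match in CHAC1 began 209 bases before the start and that in ASNS 68 bases before. Of the called members of the list, 14 had a promoter in the RefSeq table and 4 of these held TGATGNAA (28.57%: CHAC1, ASNS, ATF3 and SLC3A2), beside 1.65% of all 10488 promoters, 2.44% of 409 called lower and 1.88% of 319 called higher. Over all 18 members with a promoter, called or not, the same 4 made up 22.22%, so the share describes the list rather than its calls. A match is only a string of letters, and a member without a match in this window may hold one elsewhere. The median GC content was 65.3% over all promoters, 66.3% for rows called lower and 67.7% for rows called higher. The AP-1 motif TGANTCA occurred in 4.34% of all, 5.38% of lower and 5.33% of higher promoters.

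A list of p53 response genes, all 26 in the table, held 5 lower calls and 0 higher (19.2% called, beside 3.95% of all rows called lower, list median -0.37), and 8 of the 26 lay below all 6 others, as did 9.77% of all rows. Of the 5, SESN2 is also in the stress response list, where it read 291 and 543 against 746 to 3110 (-2.0, SE 0.282, adjusted p = 0.00651). CDKN1A, the cell cycle inhibitor p21, read 64 and 127 against 136 to 1170 (-1.82, SE 0.424, adjusted p = 0.0434), and BBC3, the death factor PUMA, 254 and 306 against 390 to 985 (-1.01, adjusted p = 0.0141). GDF15 (-2.09, adjusted p = 0.0295) and PHLDA3 (-1.68, adjusted p = 0.0434) were the others. Without shSMARCA4 replicate 1 none of the 5 was called, without replicate 2 there was 1, and without the shMAFK group 1 (adjusted p of up to 0.334).

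Genes of the interferon response and of antigen presentation by MHC class I formed another group of falls. Of 26 listed, 20 were in the table, 7 were lower and 1 higher (40.0% called, beside 3.95% of all rows called lower and 2.66% called higher, list median -0.69). LGALS3BP, a secreted glycoprotein induced by interferon, was put on the list with its fall in these data known, and without it 6 of 19 were lower (31.6%). LGALS3BP (chr17:78971238-78980109) read 38 and 66 in shSMARCA4, 726 and 662 in shE2F6, 729 and 873 in shKDM1A, 866 and 948 in shMAFK, and 1071 and 1098 in shLUC (-3.96, SE 0.210, adjusted p = 0.000283). The 8 libraries outside shSMARCA4 lay close together and far above. BST2 (chr19:17402939-17405648), or tetherin, which holds budding viruses at the cell surface, read 106 and 96 in shSMARCA4, 370 and 346 in shE2F6, 1050 and 1526 in shMAFK, 2147 and 1349 in shKDM1A, and 614 and 710 in shLUC (-3.17, SE 0.215, adjusted p = 0.000532). Both were also called against each of the 3 knockdowns alone and in every fit that left out 1 library.

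The class I genes moved by less. B2M, the light chain, read 844 and 540 against 864 to 1847 (-1.15, SE 0.240, adjusted p = 0.0303), and HLA-B 940 and 658 against 1300 to 2530 (-1.28, SE 0.213, adjusted p = 0.0131). HLA-B shares sequence with other class I genes, so its reads may be split among them. HLA-C differed by -0.73 (adjusted p = 0.185) and HLA-E by 0.27 (adjusted p = 0.673). The immunoproteasome genes PSMB9 (-1.12, adjusted p = 0.0395) and PSMB8 (-0.69, adjusted p = 0.0482), which overlap on the chromosome, and the peptide transporter TAP1 (-0.63, adjusted p = 0.0309) were lower.

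Other genes of the response were higher or did not pass the threshold. STAT2, which carries the interferon signal, was higher, at 1026 and 1092 against 657 to 802 (0.55, SE 0.131, adjusted p = 0.0467). IRF1 differed by -0.19 (adjusted p = 0.731) and ISG15 by -0.24 (adjusted p = 0.754). IFITM1 and IFITM3 had differences of -1.0 (adjusted p = 0.258) and -1.17 (adjusted p = 0.165), and in both shKDM1A replicate 1 lay within or below the shSMARCA4 values. Without either shSMARCA4 library only BST2 and LGALS3BP stayed called in the list, and without any 1 library of shMAFK or shE2F6 there were 3 or 4 lower calls.

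The promoters of BST2 and LGALS3BP are shown because these genes had the largest falls of the list and each held the interferon-stimulated element of the form GAAA, any 2 bases and GAAA, in capitals below. The windows are from RefSeq, GRCh38.p14, chr19:17405581-17405880 and chr17:78979874-78980173, both on the minus strand, 5′ to 3′.
BST2: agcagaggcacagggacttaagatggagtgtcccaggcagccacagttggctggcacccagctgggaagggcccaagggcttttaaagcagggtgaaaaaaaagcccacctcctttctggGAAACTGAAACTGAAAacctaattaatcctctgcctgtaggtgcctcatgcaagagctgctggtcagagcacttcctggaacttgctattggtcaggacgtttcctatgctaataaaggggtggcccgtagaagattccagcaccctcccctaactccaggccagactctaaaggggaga
LGALS3BP: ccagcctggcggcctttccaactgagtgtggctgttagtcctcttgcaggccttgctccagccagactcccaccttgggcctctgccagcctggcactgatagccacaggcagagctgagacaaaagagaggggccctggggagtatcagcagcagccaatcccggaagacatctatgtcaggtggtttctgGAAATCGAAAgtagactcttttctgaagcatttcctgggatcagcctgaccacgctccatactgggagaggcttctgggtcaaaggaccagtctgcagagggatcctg
BST2 held 2 overlapping matches, from 130 and 124 bases before the start, and LGALS3BP 1 match from 58 bases before. Searched on both strands, the element occurred in 4 of the 8 called members (50%: BST2, LGALS3BP, B2M and TAP1), beside 2.74% of all promoters and 3.91% of those called lower. It also occurred in MX1, IFITM1, IFITM3, ISG15 and TAP2, whose differences did not pass the threshold. The share thus describes the list rather than its calls. The 8 called members include LGALS3BP, listed with its fall known, and STAT2, which was higher.

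The remaining lists held at most 3 calls each. Their called shares were 15.0% (NRF2 and MAF antioxidant), 8.3% (Polycomb repressive complex 2) and 11.1% (germline genes), beside 6.61% of all rows. In the NRF2 and MAF antioxidant list, 20 of 21 genes were in the table, 1 higher (PIR, by 0.84, adjusted p = 0.0129) and 2 lower (SLC7A11 and SRXN1, the latter by 0.87, adjusted p = 0.0124), with a median of -0.14. PIR and SRXN1 were not called without either shSMARCA4 library. Of 13 Polycomb repressive complex 2 genes 12 were in the table, and JARID2 was lower by 0.58 (adjusted p = 0.0308), also not called without either shSMARCA4 library. The median of that list was -0.04. Of 25 germline genes under E2F6 control 9 were in the table, 1 called lower, with a median of -0.08.

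That germline gene, CTCFL, shows a limit of the average over 3 knockdowns. CTCFL, the germline paralog of CTCF, read 1140 and 995 in shKDM1A, 252 and 284 in shMAFK, 151 and 131 in shE2F6, 96 and 82 in shLUC, and 100 and 126 in shSMARCA4 (-1.6, SE 0.160, adjusted p = 0.00184). Against shE2F6 alone the difference was -0.32 (adjusted p = 0.574). MAGEA4 behaved likewise, at 354 and 358 in shKDM1A, 33 to 50 in shMAFK and shE2F6, 6 and 15 in shSMARCA4, and 11 and 22 in shLUC (-2.96, SE 0.407, adjusted p = 0.00598), and was not called without the shKDM1A group. ATF5 was set by shMAFK, at 1530 and 1454, against 112 to 501 in shE2F6 and shKDM1A, 141 and 116 in shSMARCA4, and 74 and 116 in shLUC (-1.71, SE 0.254, adjusted p = 0.00807). ATF5 was not called without the shMAFK group or without either shSMARCA4 library. In these 3 genes the control lay with shSMARCA4, and another knockdown stood apart.

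Called rows with the control at the shSMARCA4 end were few. Dependence on 1 comparison knockdown is a separate matter and was common. Of the 977 calls, 372 stayed called without the shMAFK group, 634 without the shE2F6 group and 904 without the shKDM1A group. Against shE2F6 alone, 275 of the 977 were called. The shLUC mean was placed on a scale on which 0 is the mean of the other 3 knockdowns and 1 is shSMARCA4, in log2. Of the 977 called rows, 610 (62.4%) had the control within 0.25 of the other knockdowns, 243 (24.9%) had it between 0.25 and 0.75, and 101 (10.3%) had it on the far side of the other knockdowns. The control lay at 0.75 or beyond in 23 (2.4%), 5 higher and 18 lower. The median position was 0.11 for higher and 0.08 for lower calls. In 385 of the 393 higher calls both shLUC libraries lay below both shSMARCA4 libraries, and in 550 of the 584 lower calls both lay above. The rows were called on these same shSMARCA4 values, so a control lying away from them is in part set by the choice of rows. The share over all rows was not computed, and these counts and positions are no support for the calls. With shLUC replicate 1 alone the share within 0.25 was 55.8%, and with replicate 2 alone 66.4%. It also moved with the libraries compared, from 41.3% to 81.0% when 1 library was left out. Among the higher rows at the control's end, PHC2, a Polycomb complex 1 subunit, read 150 and 188 in shSMARCA4 and 209 and 209 in shLUC, against 62 to 94 in the other knockdowns (1.25, adjusted p = 0.0245). ENHO read 381 and 356, and 430 and 297 in shLUC, against 162 to 300 (0.78, adjusted p = 0.0233), and GGH was higher by 0.67 (adjusted p = 0.0356). None of these 3 was called without either shSMARCA4 library (adjusted p of up to 0.254 with FEZF1 included). NPTXR, a receptor for pentraxins such as NPTX1, read 84 and 96, and 120 and 108 in shLUC, against 170 to 366 (-1.39, adjusted p = 0.00813), and lost its call without either shSMARCA4 library.

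**Figure D5:**
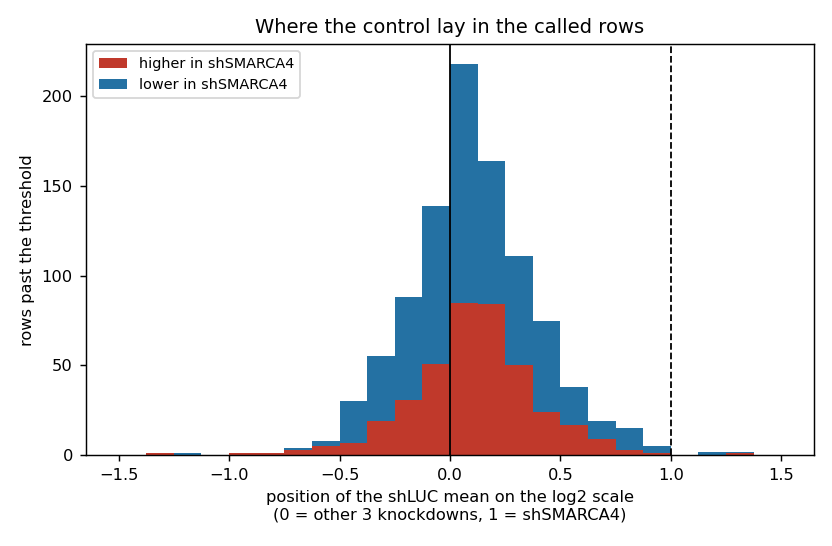
Number of called rows (y axis) by the position of the shLUC mean on a log2 scale (x axis) on which 0, the solid line, is the mean of the other 3 knockdowns and 1, the dashed line, is shSMARCA4. Red bars are rows higher and blue bars, stacked on them, rows lower in shSMARCA4. Most rows lie near 0, and 23 of 977 lie at 0.75 or beyond.

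Transposable elements hardly entered the result. Of 973 rows for their subfamilies, 3 were called (0.31%), beside 932 of 13110 protein-coding genes (7.11%) and 42 of 698 long intergenic noncoding RNAs (6.02%, 8 higher and 34 lower), while 27 transposable element rows had an unadjusted p under 0.05. The higher row was HERVK11-int, the internal part of a retrovirus-like element of the ERVK family, at 2910 and 2216 against 605 to 1134 in the other knockdowns and 1176 and 858 in shLUC (1.45, SE 0.252, adjusted p = 0.0156). HERVI-int read 162 and 220 against 261 to 478 (-0.94, adjusted p = 0.0292), and LTR49-int 1497 and 1586 against 1723 to 3170 (-0.70, adjusted p = 0.0461). All 3 were free of overlap, and all 3 lost the call without either shSMARCA4 library (adjusted p of up to 0.280). Within ERV1, the family of the last pair, the median difference over 274 rows was 0.00. By chromosome the median difference over genes ran from -0.024 on chromosome 10 to 0.067 on chromosome 19.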

How the data were processed

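RNA was sequenced from H1 cells in 5 groups of 2 libraries. The authors deposited a table of normalized tag counts per gene and transposable element, treated here as a score: whole numbers, the same in all libraries at 80.3% of ranks, with 10 rows per library at the highest value of 148866. The normalization is not given in the sources used here. Per the submitters' processing notes, STAR, STARsolo and the hg38 build were used, in roles they do not state. Counting by strand and the sharing of reads between paralogs are not given either. Groups and columns were matched by sample titles and descriptions, and 0 sample columns were left unmapped.

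Values were analysed as log2(value + 1) with limma 3.58.1 in R 4.3.3: lmFit on 8 libraries with 4 group means, the contrast of shSMARCA4 with the mean of the other 3 group means, two-sided tests from eBayes that let the variance follow the mean, and Benjamini-Hochberg adjustment over 14785 rows with a mean of at least 10 (a filter that removed none). The threshold was 0.05.

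The rows named were the 4 targets, the 12 largest rises and the 12 largest falls among called genes whose higher side averaged at least 50 and whose libraries did not overlap, called members of 18 lists (the 6 largest where there were more), the 4 clearest rows at the control's end in each direction, and 3 transposable elements. A few genes counted in these lists are not reported here by name. Other list members were named for their role after their values were seen. The members and lists were chosen with earlier results of these data known. Gene positions are from GENCODE release 29, matched by identifier for 13808 genes, and promoters from RefSeq (GRCh38.p14). Alternatives covered the pseudocount, filter, variance model, normalization, libraries, replicate block and each comparison knockdown alone. Tables used Python 3.11.15 with pandas 2.3.3, and plots matplotlib 3.10.9.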

Additional observations from a re-analysis of the deposited data

How the results depend on the processing

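For the 93 named rows, none of 2404 alternative fits reversed the direction of a called row, and 478 ended a call. The 3 targets that were not called did change sign. With a single library removed, the lowest difference for E2F6 was -0.03 (0.181 in the main fit). That for MAFK lay between -0.231 and 0.231. KDM1A differed by 0.44 in the main fit and by -0.055 against shE2F6 alone. Of the 90 called, 16 stayed called under every alternative planned and 23 in every fit that left out 1 library. Leaving out 1 library took the calls from 184 to 2404 (higher 43 to 1175, lower 141 to 1229), the rows outside the range from 3046 to 5832, the rows at least 2-fold apart from 866 to 967, the share of called rows with the control near the other knockdowns from 41.3% to 81.0%, higher mesendoderm calls from 0 to 10, lower stress response calls from 10 to 21, and interferon calls from 0 to 2 (higher) and 2 to 10 (lower). The share of calls that were higher, 40.2%, was 23.4% and 29.1% without shSMARCA4 replicate 1 and 2, 48.9% without shKDM1A replicate 2, and 33.5% without the shMAFK group; the cause was not tested. With the other 6 libraries as 1 group there were 486 calls (175 higher, 311 lower), 2 in the stress response list and 4 lower and 0 higher in the interferon list. Without the shMAFK group there were 376 (126 higher, 250 lower), with 3 mesendoderm, 11 stress response and 2 lower and 0 higher interferon calls. Without the shE2F6 group 260 rows were called higher, 4473 lay outside the range, and interferon calls were 4 lower and 0 higher. Without the shKDM1A group there were 1478 calls, 676 of them higher.

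Each knockdown alone, an alternative chosen after seeing the data, gave these values. Against shE2F6 there were 298 calls (115 higher, 183 lower), 6869 rows outside the range, 0 mesendoderm, 2 stress response and 2 lower and 0 higher interferon calls. Against shKDM1A there were 624 (219 higher), 6572 rows outside, and 4 mesendoderm and 4 lower and 0 higher interferon calls. Against shMAFK there were 8225 rows outside, 0 higher interferon calls and a control share of 39.4%. Without the variance trend the higher interferon call was lost (0). Replicate numbers were not taken as a pairing: the replicate differences of 2 groups correlated at between -0.05 and 0.337. A replicate block gave 1031 calls, 899 of them shared, and ended 4 of the named calls. The read depth is unknown, so no counting limit can be given for low genes.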
